A study of Mus musculus with 9 samples.

Results

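Coenzyme A carries acyl groups in fatty acid synthesis, fatty acid oxidation and the citric acid cycle, and cells build it from pantothenate, which is vitamin B5. Pantothenate kinases (Pank1, Pank2 and Pank3) form the first and regulated step, Ppcs and Ppcdc carry out the next steps, and Coasy completes the molecule. Pank4 belongs to the same family but is known to lack kinase activity. Vanins (Vnn1 and Vnn3) are pantetheinases that act outside the cell or at its surface and split pantetheine, a breakdown product of coenzyme A, into pantothenate and cysteamine.

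These 9 genes, 2 vanins, 4 genes of the pantothenate kinase family and 3 later enzymes, were read from a table of 57238 entries by their gene names. They were chosen by pathway, with earlier results on the same libraries known, so no p-value is given for them. Their differences, and how many of them pass a threshold that is applied to all genes, are a description. RNA was measured in bulk in bone marrow-derived dendritic cells (BMDCs) of wildtype C57BL/6 mice, grown with GM-CSF at 20 ng/ml for 6 days per the labels, in 3 groups of 3 libraries. CTR BMDCs received no exosomes. For 24 h, NE-treated BMDCs received exosomes of normal cells, given in the study as the mouse fibroblast line NIH-3T3, and TDE-treated BMDCs received exosomes of tumor cells whose line the labels do not name. The labels do not say whether the libraries of a group came from separate mice or cultures, so p-values measure the spread between libraries, which may be technical. Between 17469782 and 21092943 estimated reads lay on genes in a library, and 3 reads, the floor used here, equalled 0.142 to 0.172 CPM, the count of a gene divided by library size, which edgeR's TMM method adjusts for single-gene values. Such floors cover counting error only.

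CTR replicate 1 stood apart from the other libraries. Its correlation of log2 CPM with the other CTR libraries was 0.853 and 0.887, against at least 0.941 between any pair of the other 8 libraries. Its values also followed gene length. Relative to the mean of the other CTR libraries, the median gene under 1000 bases was higher by 1.5 on the log2 scale, and the median gene of 8000 bases or more was lower, at -1.14. The difference of CTR replicate 2 from CTR replicate 3 also followed length, less steeply, with medians of 0.27 and -0.41 in these classes. Leaving out CTR replicate 1 therefore does not remove differences by length. For the members, fold changes against CTR are given with and without CTR replicate 1.

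The cultures held markers of several myeloid cell types. Itgax, which encodes CD11c, was present at a mean of 149 CPM in CTR, 163 CPM in NE-treated and 112 CPM in TDE-treated BMDCs, and Zbtb46, a transcription factor of classical dendritic cells, at 18.3, 18.6 and 14.7 CPM. Summed over 8 dendritic cell markers, CTR replicate 1 had 12012 CPM, the other CTR libraries 3769 and 4655 CPM, NE-treated BMDCs 3594 to 4512 CPM and TDE-treated BMDCs 1917 to 2023 CPM. Most of each of these sums came from Cd74, H2-Aa and H2-Ab1, so they are not levels of a cell type. Of these markers 3 fell in TDE-treated against CTR BMDCs (adjusted p under 0.05 by edgeR), and 6 without CTR replicate 1. The marker counts in this paragraph stand beside 16.9% of all genes that passed against CTR, and 34.4% without CTR replicate 1. The 8 macrophage and monocyte markers summed to 56894 CPM in CTR replicate 1, 34213 and 37397 CPM in the other CTR libraries, 34666 to 41163 CPM in NE-treated and 32236 to 33336 CPM in TDE-treated BMDCs. Most of these sums came from Lyz2, at 45861 CPM in CTR replicate 1 and a mean of 27538 CPM in TDE-treated BMDCs, so they hide changes of other markers. Adgre1 rose, and 2 others fell, or 4 without CTR replicate 1. Means in CTR, NE-treated and TDE-treated BMDCs were 378, 454 and 2229 CPM for Adgre1 and 4111, 2459 and 187 CPM for Apoe. The 8 neutrophil markers summed to 28583 CPM in CTR replicate 1, 7030 and 9350 CPM in the other CTR libraries, 7395 to 10696 CPM in NE-treated and 3044 to 3339 CPM in TDE-treated BMDCs, and 6 fell against CTR, or 8 without CTR replicate 1. All 6 eosinophil and mast cell markers fell with and without that library, from 1539 CPM in CTR replicate 1, 464 and 611 CPM in the other CTR libraries and 493 to 563 CPM in NE-treated to 107 to 130 CPM in TDE-treated BMDCs. Fibroblast markers were low but higher in TDE-treated BMDCs, at 10.6 to 11.4 CPM in sum against 6.32 to 7.42 CPM in CTR and 6.24 to 7.51 CPM in NE-treated BMDCs. Of 6, Dcn (means of 0.339, 0.293 and 3.34 CPM in CTR, NE-treated and TDE-treated BMDCs) and Pdgfrb rose against CTR, and Dcn rose against NE-treated BMDCs. Col1a2 fell against CTR when CTR replicate 1 was left out. Epithelial markers summed to at most 12.6 CPM in any library, with Krt5 at 0, and 1 of 2 tested, Cdh1, fell against both groups. In bulk RNA, fewer cells of a type and less RNA per cell cannot be told apart, and the part of these shifts in the values below was not tested.

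Of the vanins, only Vnn3 was well detected, and it was the member that differed most between groups. Vnn3 (ENSMUSG00000020010, chr10:23851462-23869843, plus strand, build GRCm38) and Vnn1 (ENSMUSG00000037440, chr10:23894688-23905343, plus strand) are neighbours, with 24844 bases between them. Vnn1 had no reads in any CTR or NE-treated library, and 1, 5 and 1 reads in the TDE-treated libraries. It was removed by the filter on low counts, and since every group mean was at or under the floor of 3 reads, no fold is given. The other 8 members passed the filter.

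Vnn3 had 125, 133 and 147 reads in CTR, 111, 99 and 89 in NE-treated and 1011, 979 and 1126 in TDE-treated BMDCs. In CPM, these were 7.92, 6.01 and 7.42 in CTR, 5.89, 5.37 and 4.43 in NE-treated and 56.0, 53.4 and 58.8 in TDE-treated BMDCs. Every TDE-treated library was far above all others, and every NE-treated library was below every CTR library. The mean was 7.11 ± 0.993 CPM in CTR, 5.23 ± 0.743 CPM in NE-treated and 56.1 ± 2.69 CPM in TDE-treated BMDCs (SD, n = 3). TDE-treated BMDCs thus had a Vnn3 level 7.89-fold that of CTR (log2 fold change 2.98, SE 0.167) and 10.7-fold that of NE-treated BMDCs (3.42, SE 0.171). These differences were known when the members were chosen and are no independent evidence. Without CTR replicate 1 the log2 fold change against CTR was 3.06 (SE 0.140), so the difference did not rest on that library. Between NE-treated and CTR BMDCs the log2 fold change of Vnn3 was -0.44 (SE 0.161), and it was -0.36 without CTR replicate 1. Among the 15028 tested genes, 86 had a higher log2 fold change than Vnn3 in TDE-treated against CTR BMDCs and 81 in TDE-treated against NE-treated BMDCs.

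**Figure D1:**
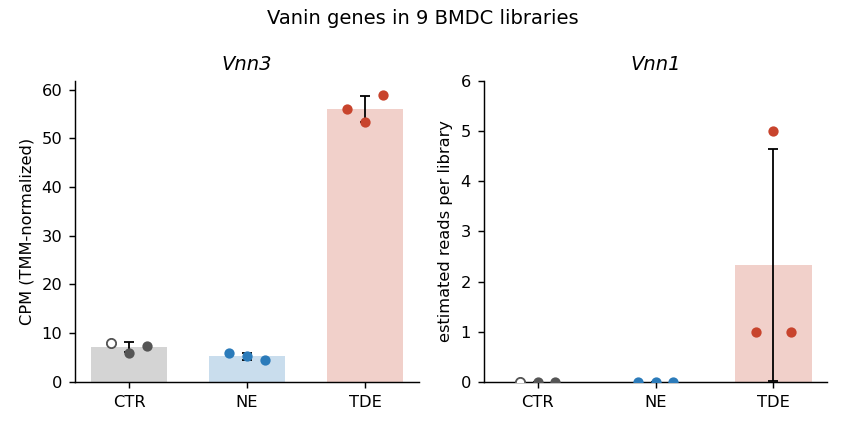
Vnn3 as TMM-normalized CPM and Vnn1 as estimated reads in each library, on linear axes, by group. Bars are group means, error bars are SD over 3 libraries, filled circles are libraries and the open circle is CTR replicate 1. The 3 TDE-treated libraries lie between 53.4 and 58.8 CPM for Vnn3, no CTR or NE-treated library exceeds 7.92 CPM, and Vnn1 has reads in TDE-treated libraries alone.

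The promoter window of Vnn3 is shown because this is the member whose level differed most, and it was searched for motifs of factors known to act in myeloid cells or lipid metabolism. The sequence is RefSeq's for build GRCm38.p6, chr10:23851212-23851511 on the plus strand, 250 bases before and 50 bases from the annotated start, and capitals mark the only motif match.
Vnn3 promoter: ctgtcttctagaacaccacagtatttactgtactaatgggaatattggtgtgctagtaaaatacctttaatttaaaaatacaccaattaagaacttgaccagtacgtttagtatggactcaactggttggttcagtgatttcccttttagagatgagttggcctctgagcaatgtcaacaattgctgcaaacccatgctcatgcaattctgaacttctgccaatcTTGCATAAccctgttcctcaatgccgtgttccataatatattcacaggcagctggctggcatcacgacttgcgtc
The capitals match TTGCNNAA, a short form of the C/EBP motif, whose first base lies 25 bases before the start. This motif was found on either strand in 10.8% of 32851 promoters of the same length. No match was found for AGGTCA, the PPAR and nuclear receptor repeat unit (16.3% of promoters), or for its direct repeat AGGTCANAGGTCA (0.0396%), which contains it. TGANTCA, the AP-1 motif (7.81%), TTCNNNGAA, the STAT motif (8.30%), and the kappaB motif (8.46%) were not found either. A match is a description of letters in this window, and no binding was measured. Promoters were matched for 7 of 9 members, all except Vnn1 and Coasy.

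The pantothenate kinase family showed small differences between groups. Pank2 (ENSMUSG00000037514, chr2:131262495-131299188, plus strand) was at 48.5, 59.2 and 55.1 CPM in CTR, 57.5, 50.1 and 57.4 CPM in NE-treated and 61.2, 61.4 and 63.6 CPM in TDE-treated BMDCs. The TDE-treated libraries lay above all others, by a narrow margin. The log2 fold change was 0.19 (SE 0.124) against CTR, or 0.11 (SE 0.0867) without CTR replicate 1. Against NE-treated BMDCs it was 0.17 (SE 0.124), and 0.17 (SE 0.0776) with that library left out of the fit. Exons of Pank2 overlap those of Rnf24 on the opposite strand over 1125 of 4912 bases and those of Gm14233 on the same strand over 359 bases, and since the strand of counting is not given in the sources used here, its reads are uncertain to that extent.

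Pank4 (ENSMUSG00000029056, chr4:154964123-154980938, plus strand), a family member known to lack kinase activity, was at 24.0, 30.3 and 29.7 CPM in CTR, 27.5, 26.9 and 29.2 CPM in NE-treated and 36.2, 36.0 and 32.8 CPM in TDE-treated BMDCs. Again the TDE-treated libraries did not overlap the others. The log2 fold change was 0.32 (SE 0.131) against CTR and 0.33 (SE 0.131) against NE-treated BMDCs. Without CTR replicate 1 it was 0.21 (SE 0.0812) and 0.32 (SE 0.0728).

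Pank3 (ENSMUSG00000018846, chr11:35769484-35791285, plus strand), a cytosolic kinase, was at 10.01, 72.2 and 92.8 CPM in CTR, 99.5, 90.5 and 72.6 CPM in NE-treated and 71.3, 70.4 and 75.4 CPM in TDE-treated BMDCs. The groups overlapped, and CTR replicate 1 was 8.10-fold below the mean of the other CTR libraries. For TDE-treated against CTR BMDCs the log2 fold change was 0.31 (SE 0.611) with that library and -0.20 (SE 0.145) without it. Against NE-treated BMDCs it was -0.28 (SE 0.611), and -0.28 (SE 0.130) when CTR replicate 1 was left out of the fit.

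Pank1 (ENSMUSG00000033610, chr19:34806940-34879455, minus strand), a kinase known for high levels in liver, was the lowest of the 4. It was at 1.52, 3.75 and 3.73 CPM in CTR, 3.93, 2.60 and 3.18 CPM in NE-treated and 3.44, 2.62 and 3.34 CPM in TDE-treated BMDCs. All 3 groups overlapped. The log2 fold change against CTR was 0.06 (SE 0.353), which turned to -0.26 (SE 0.215) without CTR replicate 1. Pank1 had -0.05 (SE 0.352) against NE-treated BMDCs, and -0.06 (SE 0.197) with that library left out of the fit.

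Levels of different genes were compared per kilobase of the deposited gene length. Shares were taken of the summed CPM per kilobase of the 4 family genes, Pank4 included. Pank2 held 38.6% ± 0.868, Pank4 34.3% ± 1.88, Pank3 26% ± 0.966 and Pank1 1.12% in TDE-treated BMDCs (SD, n = 3). In NE-treated BMDCs the shares were 36.3% ± 2.42 for Pank2, 33.4% ± 4.18 for Pank3, 29.1% ± 2.12 for Pank4 and 1.22% for Pank1. Pank2 had the highest mean share in both groups, and Pank1 contributed little. In NE-treated BMDCs the first place of Pank2 rested on replicate 3, where it held 39.0% and Pank3 28.5%. Pank3 was slightly above Pank2 in replicate 1 (35.80% against 35.78%) and above it in replicate 2 (35.7% against 34.2%). In CTR, the share of Pank3 was 22.6% ± 14.6, since CTR replicate 1 had 6.23%. The sum itself was 37.9, 37.6 and 37.7 CPM per kilobase in TDE-treated BMDCs, 37.7, 34.3 and 34.5 in NE-treated BMDCs and 21.8, 35.4 and 37.0 in CTR. Apart from CTR replicate 1, the family total thus stayed within a narrow range across the groups. This total counts Pank4, which is known to lack kinase activity, so it is not a sum over active kinases alone.

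The later enzymes did not move together. Ppcs (ENSMUSG00000028636, chr4:119418530-119422420, minus strand), which joins phosphopantothenate to cysteine, was at 21.7, 7.72 and 6.61 CPM in CTR, 5.89, 5.48 and 7.46 CPM in NE-treated and 3.99, 4.48 and 3.71 CPM in TDE-treated BMDCs. Every TDE-treated library was below every other library. The log2 fold change was -1.56 (SE 0.434) against CTR, and -0.83 (SE 0.173) without CTR replicate 1, whose Ppcs level was 3.0-fold that of the other CTR libraries. Against NE-treated BMDCs it was -0.63 (SE 0.430), and -0.64 (SE 0.160) when CTR replicate 1 was left out of the fit.

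Ppcdc (ENSMUSG00000063849, chr9:57385095-57440124, minus strand), the decarboxylase of the next step, was at 48.7, 21.7 and 20.0 CPM in CTR, 20.6, 18.2 and 22.7 CPM in NE-treated and 22.4, 23.6 and 20.6 CPM in TDE-treated BMDCs. The groups overlapped, with CTR replicate 1 alone far above the rest. The log2 fold change against CTR was -0.44 (SE 0.320), and 0.08 (SE 0.112) without that library. Against NE-treated BMDCs it was 0.11 (SE 0.320), and 0.11 (SE 0.100) with CTR replicate 1 left out of the fit.

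Coasy (ENSMUSG00000001755, chr11:101082565-101086619, plus strand), the bifunctional enzyme of the final steps, was at 34.6, 19.5 and 17.7 CPM in CTR, 18.9, 16.8 and 21.1 CPM in NE-treated and 23.7, 23.3 and 23.8 CPM in TDE-treated BMDCs. The TDE-treated libraries lay above every NE-treated library, and above the CTR libraries other than replicate 1. Against CTR the log2 fold change was -0.02 (SE 0.246), which turned to 0.34 (SE 0.106) without CTR replicate 1. Against NE-treated BMDCs it was 0.32 (SE 0.247) with all libraries and 0.31 (SE 0.0949) without that one.

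**Figure D2:**
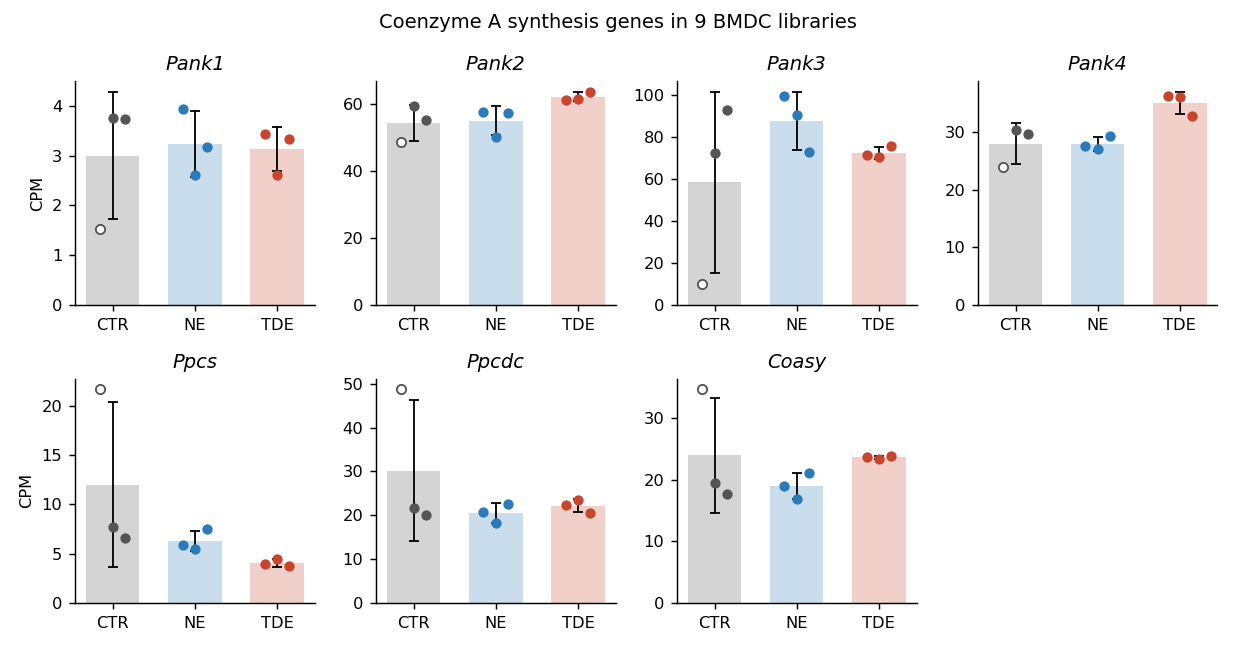
The 7 genes of coenzyme A synthesis in each library, as TMM-normalized CPM on linear axes, by group. Bars are group means, error bars are SD over 3 libraries, filled circles are libraries and the open circle is CTR replicate 1, which sits far below its group for Pank3 and far above it for Ppcs, Ppcdc and Coasy.

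The values of CTR replicate 1 for these genes are shown beside its values for all genes in the plot against gene length. Its difference from the mean of the other CTR libraries was -3.02 on the log2 scale for Pank3, whose gene length is 7376 bases, and 1.59 for Ppcs, whose length is 1443 bases. It was 1.22 for Ppcdc, 0.89 for Coasy, 0.24 for Vnn3, -0.23 for Pank2, -0.32 for Pank4 and -1.24 for Pank1. Vnn3 was thus among the members least displaced in this library. Across all 15028 tested genes the Spearman correlation of this difference with gene length was -0.485, and that of the difference between CTR replicates 2 and 3 was -0.440. Genes share libraries and are not independent replicates, so these are descriptions.

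**Figure D3:**
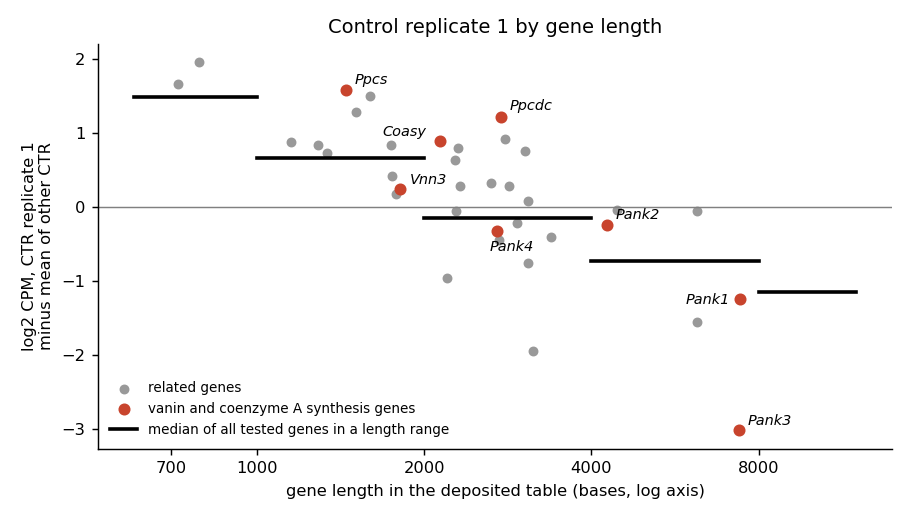
Difference of CTR replicate 1 from the mean of the other CTR libraries (log2 CPM, vertical axis) against gene length in bases (logarithmic horizontal axis) for the 8 tested members (red) and the related genes described later (grey). Black bars are the medians of all tested genes in 5 length classes, from 1.5 for genes under 1000 bases to -1.14 for genes of 8000 bases or more, and Pank3 lies furthest below them.

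Counts of members that passed an adjusted p of 0.05 over all genes are read against the share of all tested genes that did (edgeR's quasi-likelihood test with Benjamini-Hochberg adjustment). Of the 8 members, 2 passed in TDE-treated against CTR BMDCs, Vnn3 higher and Ppcs lower, where 16.9% of all genes passed (7.57% higher and 9.34% lower). Against NE-treated BMDCs, 1 of 8 passed, Vnn3, where 13.9% of all genes did (6.73% higher and 7.21% lower). Without CTR replicate 1, 3 members passed against CTR (Coasy in addition) beside 34.4% of 15301 genes. With the same library left out, 4 passed against NE-treated BMDCs (Vnn3, Pank4 and Coasy higher, Ppcs lower) beside 40.7%. Apart from Vnn3, these counts come to 1 of 7 members against CTR and 0 of 7 against NE-treated BMDCs with all libraries.

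No member passed between NE-treated and CTR BMDCs, where 0% of all genes did by edgeR, 487 had an unadjusted p under 0.05 and DESeq2 called 6. Libraries of the 2 groups did not overlap for 4 members against CTR (Vnn3, Pank2 and Pank4 higher, Ppcs lower), beside 44% of all genes, and for 5 against NE-treated BMDCs (the same and Coasy, higher), beside 54.5%. For NE-treated against CTR BMDCs this held for 1 member, Vnn3, beside 7.71%. The median log2 fold change of the 8 members was 0.12 against CTR and 0.14 against NE-treated BMDCs, and over all tested genes it was -0.05 and -0.02. Both comparisons of TDE-treated BMDCs use the same TDE-treated libraries.

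**Figure D4:**
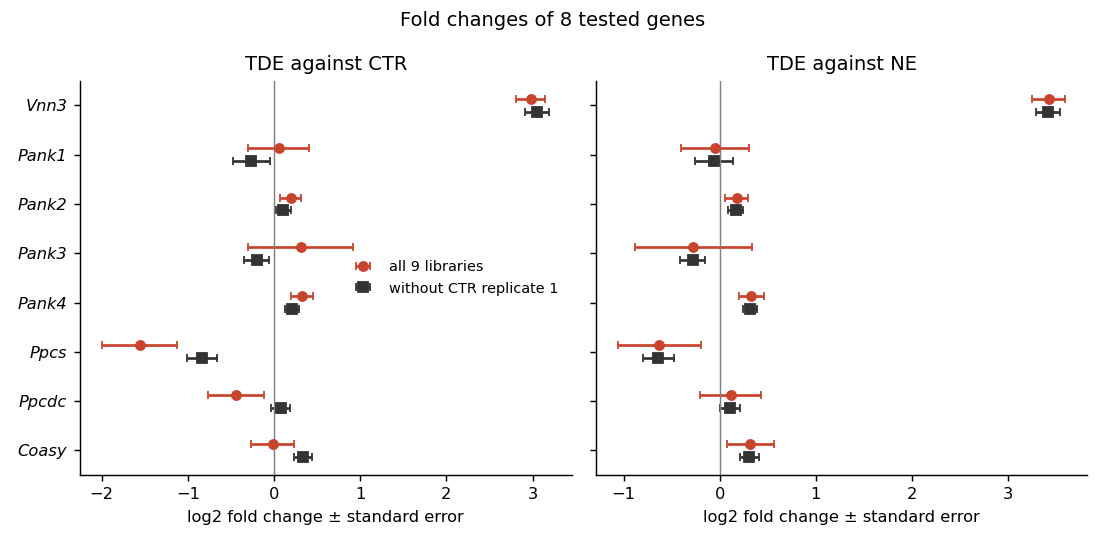
Log2 fold changes of the 8 tested members with standard errors, for TDE-treated against CTR and TDE-treated against NE-treated BMDCs, with all 9 libraries and without CTR replicate 1. Vnn3 lies between 2.98 and 3.42, while the other members lie between -1.56 and 0.34.

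Per kilobase of gene length, Vnn3 moved from near the bottom of the members to the top. In CTR the order of mean CPM per kilobase was Pank2 at 12.7, Coasy at 11.2, Ppcdc at 11.0, Pank4 at 10.3, Ppcs at 8.32, Pank3 at 7.91, Vnn3 at 3.93 and Pank1 at 0.405. Neighbours in this order overlapped between libraries, except Vnn3 and Pank1. These means include CTR replicate 1, which was far below its group for Pank3 and far above it for Ppcs, Ppcdc and Coasy. With and without it, mean CPM in CTR was 58.3 and 82.5 for Pank3, and 23.9 and 18.6 for Coasy. For Ppcdc it was 30.2 and 20.9, and Ppcs was also lower without that library. The places of these genes in CTR therefore depended on CTR replicate 1. In NE-treated BMDCs the order was Pank2, Pank3, Pank4, Coasy, Ppcdc, Ppcs, Vnn3 and Pank1. In NE-treated BMDCs Vnn3 had the same place, at 2.89 ± 0.41 CPM per kilobase, below Ppcs at 4.35 and above Pank1 at 0.437. In TDE-treated BMDCs Vnn3 came first, at 31.0 ± 1.49 CPM per kilobase, followed by Pank2 at 14.6, Pank4 at 12.9, Coasy at 11.0, Pank3 at 9.81, Ppcdc at 8.09, Ppcs at 2.81 and Pank1 at 0.423 (SD, n = 3). No neighbours in this last order overlapped between libraries.

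**Figure D5:**
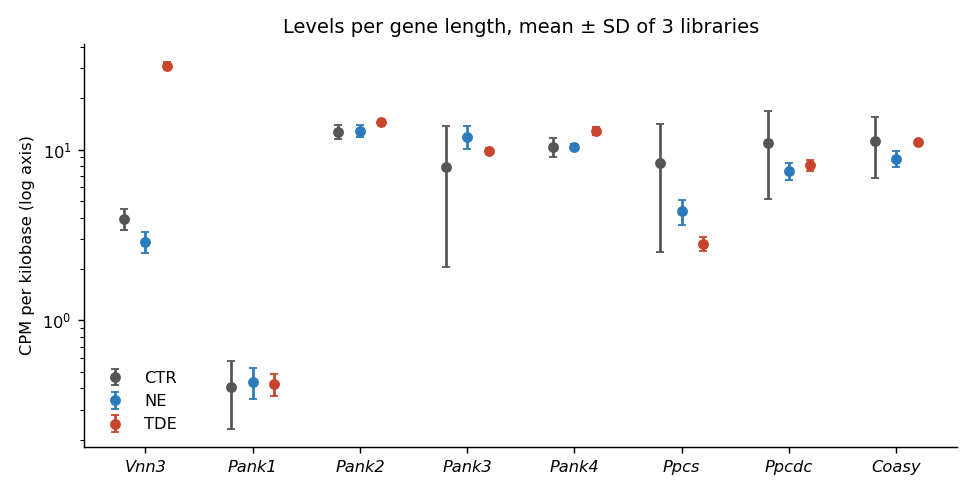
CPM per kilobase of gene length for the 8 tested members, on a logarithmic vertical axis, by group, as the mean and SD of 3 libraries. Vnn3 is 7th of 8 in CTR and NE-treated BMDCs and 1st in TDE-treated BMDCs, at 31.0 CPM per kilobase.

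Beyond the members, 36 genes that handle coenzyme A, its thioesters or the products of pantetheinases were examined, of which 28 were tested. These lists were also chosen with earlier results of these data known. Their counts and the adjusted p-values (edgeR) given below are therefore a description and no independent evidence. In TDE-treated against CTR BMDCs 5 of 28 fell and none rose, and against NE-treated BMDCs 7 fell and none rose. Of all genes, 16.9% and 13.9% passed in either direction, and 9.34% and 7.21% passed as lower. In NE-treated against CTR BMDCs 0 of 28 changed. The median log2 fold change over the 28 was -0.38 against CTR and -0.10 against NE-treated BMDCs, beside -0.05 and -0.02 over all tested genes. Leaving out CTR replicate 1 moved the median of the 28 against CTR to -0.13. Without CTR replicate 1, 11 changed against CTR, 3 higher and 8 lower, and 11 against NE-treated BMDCs, 2 higher and 9 lower, where 34.4% and 40.7% of all genes passed.

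Of 10 genes on coenzyme A transport, transfer and breakdown, 9 were tested and 2 fell. Enpp1, a cell surface pyrophosphatase, was at 3.74, 5.96 and 4.44 CPM in CTR, 7.11, 4.12 and 4.57 CPM in NE-treated and 1.83, 2.13 and 2.04 CPM in TDE-treated BMDCs. It fell by 1.24 on the log2 scale against CTR (SE 0.278, adjusted p = 0.0201) and by 1.40 against NE-treated BMDCs (SE 0.279, adjusted p = 0.0129). Aasdhppt, which moves the phosphopantetheine arm of coenzyme A onto carrier proteins, was at 12.8, 10.7 and 10.3 CPM in CTR, 11.0, 10.8 and 12.3 CPM in NE-treated and 7.32, 8.02 and 8.25 CPM in TDE-treated BMDCs. Its TDE-treated libraries were below all others, with log2 fold changes of -0.52 (SE 0.145, adjusted p = 0.0438) against CTR and -0.53 (SE 0.145, adjusted p = 0.0443) against NE-treated BMDCs. Slc5a6, the transporter that takes up pantothenate, had a log2 fold change of -0.23 (SE 0.276) against CTR.

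Of 15 acyl-CoA thioesterases, which release free coenzyme A from acyl-CoA, 10 were tested. With all libraries 4 fell in at least 1 comparison, all from the cluster of Acot1, Acot2, Acot4 and Acot6 on chr12. Acot1 was at 12.5, 8.67 and 7.42 CPM in CTR, 8.23, 6.94 and 9.5 CPM in NE-treated and 2.16, 2.67 and 2.14 CPM in TDE-treated BMDCs. It fell by 2.03 on the log2 scale against CTR (SE 0.247, adjusted p = 0.0014) and by 1.82 against NE-treated BMDCs (SE 0.246, adjusted p = 0.0022), and passed under every alternative tried. Acot1 and Acot2 are nearly identical copies whose reads the counting may have split, so each value is uncertain.

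Acot2 fell against NE-treated BMDCs (log2 fold change -1.07, SE 0.274, adjusted p = 0.0348) and had -0.93 against CTR (adjusted p = 0.0520). Acot6, below 1.1 CPM in all libraries, fell against NE-treated BMDCs (-1.82, SE 0.463, adjusted p = 0.0339) and had -1.36 against CTR (adjusted p = 0.0835). Acot4 had 9.26, 10.67 and 14.07 estimated reads in CTR, 4.61, 18.00 and 13.32 in NE-treated and 1, 0 and 3 in TDE-treated BMDCs (adjusted p = 0.0398 and 0.0386). Exons of Acot4 overlap an antisense gene over 615 bases. Acot7, a cytosolic thioesterase, did not pass with all libraries (log2 fold change 0.79 against NE-treated BMDCs, adjusted p = 0.182) and rose when CTR replicate 1 was left out (0.78, adjusted p = 0.000725). Acot9, on chrX, had every TDE-treated library (36.4, 36.5 and 33.6 CPM) below every other library. Its log2 fold changes of -0.46 against CTR and -0.42 against NE-treated BMDCs did not pass with all libraries. It passed under 3 of 13 and 2 of 14 alternatives. Without CTR replicate 1, 5 thioesterases fell and 1 rose in each comparison.

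Of 6 genes for cysteamine and taurine, 4 were tested and Csad, the decarboxylase that forms hypotaurine, fell. Its levels were 12.4, 13 and 12.7 CPM in CTR, 13, 13.4 and 14.2 CPM in NE-treated and 7.70, 9.61 and 7.89 CPM in TDE-treated BMDCs. The log2 fold change was -0.60 against CTR (SE 0.136, adjusted p = 0.0210) and -0.69 against NE-treated BMDCs (adjusted p = 0.0124). Ado, which oxidizes the cysteamine that vanins release, had a log2 fold change of 0.01 (SE 0.119) against CTR. Of the 5 genes of the nitrilase family, to which vanins are related, none passed with all libraries, and Btd had the values -0.36 and -0.40 against CTR and NE-treated BMDCs.

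The calls for Aasdhppt, Enpp1, Csad and the thioesterases other than Acot1 depended on single libraries and settings. For TDE-treated against CTR BMDCs, Enpp1 passed under 7 of 13 alternatives, Csad under 6, Aasdhppt under 5 and Acot1 under 13. With CTR replicate 1 left out, the log2 fold changes against CTR were -1.39 for Enpp1, -0.62 for Csad, -0.43 for Aasdhppt, -1.80 for Acot1, -1.19 for Acot2 and -1.50 for Acot6, and all of these passed (adjusted p between 0.000105 for Acot1 and 0.0473 for Acot6). In that fit 8 related genes fell and 3 rose. Those that rose were Dcakd (log2 fold change 0.34), Nit1 (0.35) and Acot7 (0.70).

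The genes whose levels followed Vnn3 most closely over the 9 libraries were ranked by Pearson's r of log2 CPM among 10452 genes with a mean of at least 5 CPM. Gys1, the muscle-type glycogen synthase, came first, with r = 0.9996 and 42.5, 32.8 and 227 CPM on average in CTR, NE-treated and TDE-treated BMDCs. Arhgef3 (r = 0.998), Tnip1 (r = 0.998), Dhdh (r = 0.997) and Impa2 (r = 0.996) followed. Such values rest on the gap between the TDE-treated and the other libraries, and 276 genes reached r of 0.95 or more. Of these 5 genes, 1 was also among the first 5 without CTR replicate 1, and 3 were with Spearman's rho.

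Genes beside the vanins on chr10 did not share the pattern of Vnn3. Slc18b1, which ends 23494 bases before Vnn3, had a log2 fold change of -0.64 against CTR (adjusted p = 0.368). Rps12, a ribosomal protein gene, had -2.23 (adjusted p = 0.109), with 2772 reads in CTR replicate 1 against 367 and 325 in the other CTR libraries. Eya4 had 15, 14 and 17 reads in CTR, 28, 27 and 21 in NE-treated and 4, 11 and 4 in TDE-treated BMDCs, and fell against NE-treated BMDCs (log2 fold change -1.93, adjusted p = 0.024). On the side of Vnn1, Taar1, Taar2 and Taar3 had no reads in any library.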

How the data were processed

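RNA of 9 BMDC libraries was sequenced. The authors deposited estimated counts (expected counts) of reads per gene, without normalization, and a gene length. The submitters' processing notes name TopHat2 2.1.1, DESeq2 1.24.0 and R 3.3.1. The counter, genome build and annotation are not given in the sources used here. In each library 5964 to 7750 entries held fractions.

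Estimated counts were rounded and filtered with filterByExpr, and normalized by TMM. Groups were compared with edgeR 4.0.16 (quasi-likelihood F test, 1 mean per group, all 9 libraries, Benjamini-Hochberg adjustment over 15028 genes, threshold 0.05) in R 4.3.3. The SE is the log2 fold change divided by the square root of F. DESeq2 1.42.0, other normalizations and filters, a fit to 6 libraries, a replicate block and the omission of single libraries were alternatives. The fit of TDE-treated against NE-treated BMDCs without CTR replicate 1 was added after seeing the data. The code was tested on simulated counts with the same spread setting for every gene and no outlying library. That test does not cover a library like CTR replicate 1.

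The members, lists and markers were chosen with earlier results of these data known. Named genes were all members, each list's called genes, the 5 genes most like Vnn3 and the 3 protein-coding neighbours on each side. Positions came from GENCODE vM21, in which 55450 of 55536 Ensembl identifiers were found, and promoters from RefSeq.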

Additional observations from a re-analysis of the deposited data

How the results depend on the processing

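Over all alternatives the log2 fold change of Vnn3 lay between 2.88 and 3.06 against CTR and between 3.32 and 3.52 against NE-treated BMDCs. Members called, a description only, numbered 2 against CTR, and 3 by DESeq2 (Pank4 in addition), 1 with the replicate block, 1 in the fit to 6 libraries and 1 to 3 with a library left out. Leaving out any TDE-treated library gave 1, and leaving out CTR replicate 1 gave 3, where 34.4% of all genes passed, against 16.9% with all libraries. Members called against NE-treated BMDCs numbered 1, and 2 by DESeq2, 4 in the fit to 6 libraries and 1 to 4 with a library left out. The 4 called without CTR replicate 1 stand beside 40.7% of all genes, and 13.9% of all genes passed with all libraries. Shares of all genes under the other settings are not given here, so these counts are not read as a result about the members. With a library left out, the log2 fold change of Coasy against CTR ranged from -0.18 to 0.34, the last without CTR replicate 1 and of the opposite sign to the value with all libraries. Without that library, those of Ppcs and Ppcdc moved to -0.83 and 0.08, the latter of the opposite sign, as were Pank1 at -0.26 and Pank3 at -0.20, none of which passed except Ppcs.

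Related genes called against CTR numbered 5, and 1 with library totals alone, 2 with no filter on low counts, 1 with the replicate block, 2 in the fit to 6 libraries and 1 to 11 with a library left out (1 without CTR replicate 2, TDE replicate 1 or TDE replicate 3, 2 without TDE replicate 2, 11 without CTR replicate 1). Against NE-treated BMDCs they numbered 7, and 2 with no filter, 2 with the replicate block, 11 in the fit to 6 libraries and 1 to 11 with a library left out (4 without NE replicate 1, 2 without NE replicate 2, NE replicate 3 or TDE replicate 2, 1 without TDE replicate 1 or TDE replicate 3). Without CTR replicate 1, the 11 of 28 called in each comparison stand beside 34.4% of all genes against CTR and 40.7% against NE-treated BMDCs. With all libraries these shares were 16.9% and 13.9%. For the other settings the share of all genes is not given here, so these counts are not read as a result about the related genes. The cause of these shifts was not tested. Correlations of the deviations of same-numbered libraries were -0.06 to 0.07 for TDE-treated and CTR BMDCs, -0.07 to 0.03 for TDE-treated and NE-treated BMDCs and -0.59, -0.37 and 0.18 for NE-treated and CTR BMDCs, so the numbers are not taken as pairs.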

Other observations

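Among the other genes that the deposited KEGG map of pantothenate and coenzyme A synthesis lists, 2 were tested. Dpys, the dihydropyrimidinase of pyrimidine breakdown, had 57, 29 and 17 reads in CTR, 14, 12 and 20 in NE-treated and 3, 5 and 8 in TDE-treated BMDCs. It fell against CTR (log2 fold change -2.71, SE 0.619, adjusted p = 0.0211, edgeR) and did not pass against NE-treated BMDCs (-1.45, adjusted p = 0.184). Without CTR replicate 1 the log2 fold change of Dpys was -1.91 against CTR (adjusted p = 0.00985), and it passed against NE-treated BMDCs (-1.46, adjusted p = 0.0229). Bcat2, a mitochondrial aminotransferase of branched-chain amino acids, had a log2 fold change of -0.28 against CTR, and 0.41 without CTR replicate 1 (adjusted p = 0.0355).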
